A study of Homo sapiens with 9 samples.

Results

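Genes of the Polycomb and Trithorax groups, DNA methyltransferases and class I histone deacetylases were followed across plasma cell myeloma (PCM) and B-cell lymphoma lines. The set lists 34 genes by symbol, and 30 of them, out of 11963 genes on the array with a probe set of a single symbol, were measured here. A gene with several such probe sets is represented by the brightest on average across lines. BMI1 was left out because its probe set carries several symbols, and RNF2, CBX8 and WDR5 were not analysed here. Total RNA was hybridised to Affymetrix Human Genome arrays, 1 for each PCM line (L363, U266 and LP1) and 2 for each B-cell line (Namalwa, SU-DHL4 and SU-DHL6). The B-cell arrays are labelled untreated, no treatment is named for the PCM lines, and all lines grew in RPMI medium with fetal bovine serum. L363 is known to come from a plasma cell leukaemia, U266 and LP1 from myelomas, Namalwa from a Burkitt lymphoma, and the SU-DHL lines from diffuse large B-cell lymphomas. Both SU-DHL lines are known to carry an activating EZH2 mutation, which a transcript level does not show. A line stands for 1 patient's tumour grown in culture, so 3 lines per class describe those lines rather than the disease.

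Polycomb repressive complex 2 (PRC2) places a silencing methyl mark on histone H3, and complex 1 (PRC1) binds that mark and ubiquitylates histone H2A. Trithorax and COMPASS proteins place an activating methyl mark on histone H3 or remodel nucleosomes, and demethylases remove either mark. DNA methyltransferases copy or establish cytosine methylation, and histone deacetylases remove acetyl groups and close chromatin. In germinal centre B cells EZH2 is known to be high and to hold back plasma cell genes, and the plasma cells that follow stop dividing. The series title places its contrast of PCM and B-cell lines in a study of plasma cell features of classical Hodgkin lymphoma, and the comparison asks which genes separate the classes.

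The values are log2 levels normalised by the authors with RMA, so a difference of 1 is 2-fold, and no detection call comes with them. Levels of different genes are not comparable on such arrays, and each comparison stays within a gene. The class labels fit the markers: 4 of 4 B-cell markers fell in PCM lines, 3 of 5 plasma cell markers rose and all 5 had non-overlapping classes, while T and NK, myeloid, erythroid, fibroblast and epithelial markers differed by -0.01 to 0.25. The L363 and U266 arrays lay close together. The SD of their log2 difference over all probe sets was 0.32, against 0.22, 0.24 and 0.35 for the duplicates of Namalwa, SU-DHL4 and SU-DHL6. LP1 lay 0.55 from L363 and 0.55 from U266. Over the 30 members the SD was 0.44 for L363 and U266, and 0.22, 0.20 and 0.25 for those duplicates. It was 0.42 for L363 and LP1 and 0.49 for U266 and LP1, so L363 and U266 were not the closest PCM pair there. Because of the closeness over all probe sets, each gene that passed in PCM lines is also given with L363 and U266 averaged as 1 line. Under that averaging 4 of 4 B-cell markers and 0 of 5 plasma cell markers passed. Those 5 were all higher at an unadjusted p under 0.05 (limma). For genes other than the 30 members, that averaging was chosen after seeing the data.

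PCM lines held less HDAC1, EED, EZH2, SMARCA4 and DNMT1 transcript than B-cell lines. The largest of these differences was that of the deacetylase HDAC1, 3.31-fold lower in PCM lines, and the smallest that of the maintenance methyltransferase DNMT1, 1.59-fold lower. In all, 5 of the 30 members fell in PCM lines and 0 rose, by limma on line means at a Benjamini-Hochberg adjusted p under 0.05 over 22215 probe sets. Of all probe sets, 1.67% fell and 1.12% rose, and of all genes 1.95% fell and 1.35% rose. With only probe sets above the median level tested, 5 of 26 members and 672 of 11107 probe sets passed. At an unadjusted p under 0.05, 9 members were lower and 4 higher in PCM lines, against 10.2% lower and 9.57% higher of all probe sets. The same 13 passed the adjusted threshold in the authors' deposited table, which counts arrays rather than lines. With each array centred on its 75th percentile, limma called 4 lower and 1 higher, the higher one being DNMT3A. The median difference of the members was -0.19, against 0.05 over all genes. It depended on scaling, at -0.08 against 0.03 after quantile normalization and -0.09 against 0.15 with 75th percentile centring. Of the 30 differences 20 were negative, against 4795 of all 11963 genes. In these RNA pools, fewer expressing cells and less RNA per cell cannot be told apart.

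**Figure D1:**
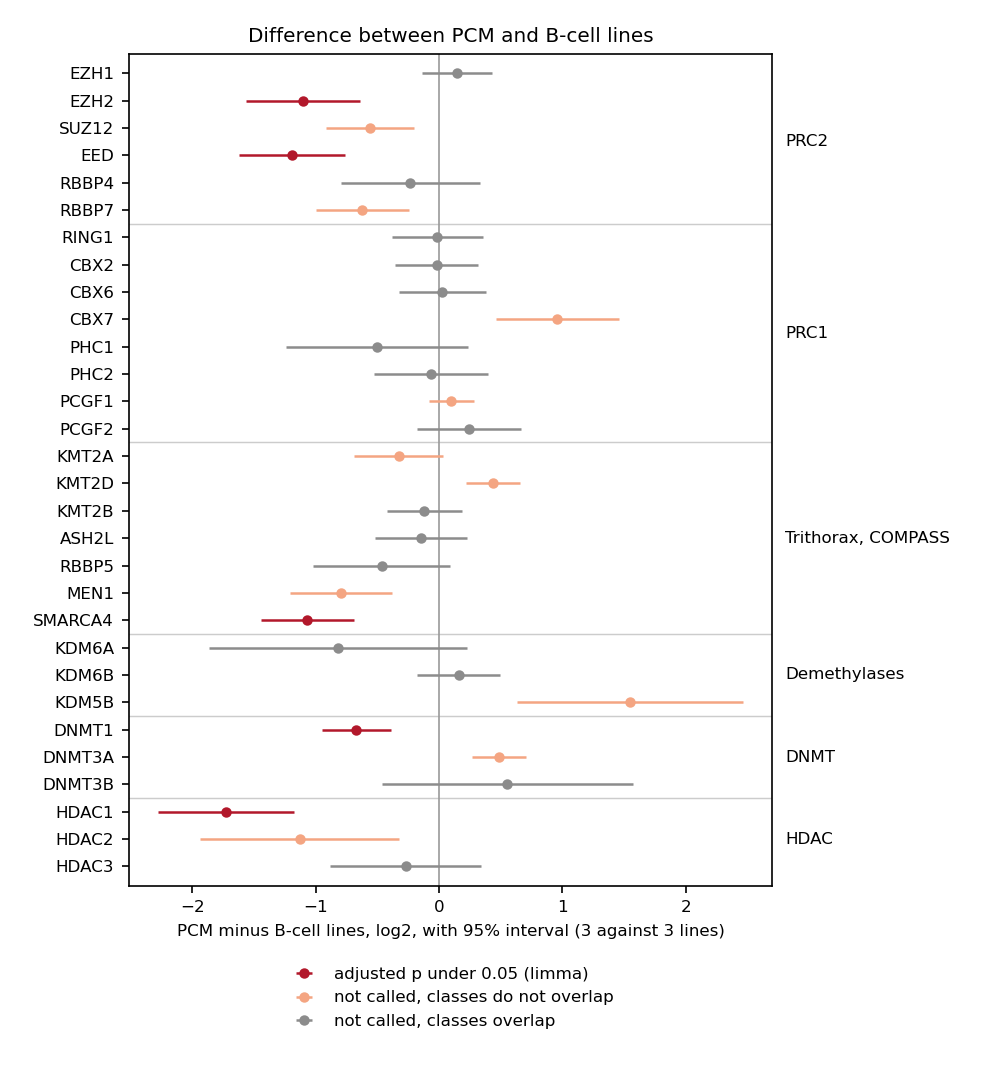
Difference in log2 level between the 3 PCM and the 3 B-cell lines for each of the 30 genes, by complex, with its 95% interval (limma on line means). Dark red marks the 5 genes with an adjusted p under 0.05, all to the left of 0, light orange genes that miss the threshold although the classes do not overlap, and grey genes whose classes overlap.

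PRC2 held 2 of the 5 lower genes. Of its 6 measured members, 2 fell in PCM lines, 0 rose and 4 did not pass, with a median difference of -0.59; at an unadjusted p under 0.05, 4 were lower. The 3 PCM values lay below the 3 B-cell line values for 4 members, EZH2, EED, SUZ12 and RBBP7. Over the whole array that pattern held for 11.3% of probe sets and 11.8% of genes. The mean over the 6 genes was 9.11 in L363, 9.38 in U266 and 9.39 in LP1, against 10.06 in Namalwa, 9.79 in SU-DHL4 and 9.82 in SU-DHL6.

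EZH2, the catalytic methyltransferase of PRC2, had log2 levels of 7.80 in L363, 8.25 in U266 and 8.19 in LP1, against 9.51 and 9.46 in Namalwa, 8.98 and 9.21 in SU-DHL4 and 8.98 and 8.95 in SU-DHL6. The lowest B-cell array stood above the highest PCM array, with L363 lowest and Namalwa highest. The line means were 8.08 ± 0.24 in PCM lines and 9.18 ± 0.27 in B-cell lines (SD, n = 3 each), a difference of -1.10 (SE 0.19), 2.14-fold lower in PCM lines, with an adjusted p of 0.0484 by limma. EED, the subunit that binds the methyl mark and stimulates EZH2, stood at 7.91 in L363, 8.19 in U266 and 8.47 in LP1, against 9.53 and 9.33 in Namalwa, 9.18 and 9.18 in SU-DHL4 and 9.55 and 9.53 in SU-DHL6. The classes were apart here too, L363 again being lowest. EED averaged 8.19 ± 0.28 in PCM lines and 9.38 ± 0.18 in B-cell lines (SD, n = 3 each), a difference of -1.19 (SE 0.17, adjusted p = 0.0339, limma). A second, dim EED probe set differed by -0.12 (adjusted p = 0.446, limma). With L363 and U266 averaged as 1 line neither gene passed, at -1.07 with an adjusted p of 0.105 for EZH2 and -1.12 with 0.0963 for EED (limma).

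The other core subunits differed less. SUZ12, which holds the complex together, was at -0.56 (95% interval -0.92 to -0.20, adjusted p = 0.119) and RBBP7, a histone-binding subunit, at -0.62 (-0.997 to -0.25, adjusted p = 0.107), both by limma and both without overlap of the classes. RBBP4, the near relative of RBBP7, was at -0.23 (adjusted p = 0.585, limma), and its levels in SU-DHL6 were 11.23 and 10.53, so its duplicates lay 0.69 apart. A second RBBP4 probe set had all PCM lines below the B-cell lines, at -0.63 (adjusted p = 0.244, limma). EZH1, the alternative catalytic subunit known from resting cells, was at 0.15 (interval -0.13 to 0.43), with overlapping classes.

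Most listed genes of cell division were lower in PCM lines, as were EZH2 and DNMT1, both known to be higher in dividing cells. Of 15 proliferation genes, 3 fell in PCM lines and 0 rose, 11 were lower and 0 higher at an unadjusted p under 0.05, 11 had PCM values below the B-cell values, and the median difference was -0.57. Of all genes 1.95% fell and 11.8% had PCM values below the B-cell values, and 10.2% of all probe sets were lower at an unadjusted p under 0.05. The 3 were the proliferation antigen MKI67 (-0.64, adjusted p = 0.0395), the topoisomerase TOP2A (-1.23, adjusted p = 0.0139) and the mitotic kinase CDK1 (-1.05, adjusted p = 0.0484), by limma. With L363 and U266 averaged, TOP2A passed at -1.21 (adjusted p = 0.0443), while MKI67 was at -0.64 (adjusted p = 0.0604) and CDK1 at -1.01 (adjusted p = 0.113, limma). Their mean level was 10.22 in L363, 10.37 in U266 and 10.28 in LP1, against 10.89 in Namalwa, 10.88 in SU-DHL4 and 10.75 in SU-DHL6, and their part in the EZH2 and DNMT1 results was not tested. The transcription factor E2F1, on the same list, was at 0.08 (adjusted p = 0.692, limma). MCM2 and TYMS, also on it, were at 0.08 (adjusted p = 0.790) and 0.08 (adjusted p = 0.767, limma).

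Promoters of EZH2, EED and HDAC1 are printed because these genes, 2 PRC2 subunits and the deacetylase with the largest difference, were all lower in PCM lines; E2F factors are known to act on the EZH2 and EED genes. Each runs from 250 bases before to 50 bases after a RefSeq start site, in GRCh38.p14, 5′ to 3′ on the gene's strand. EZH2 has 2 such windows, and EED and HDAC1 have 1 each. For a member with several windows the first listed was used, whereas the shares over all windows count each one. Capitals mark matches, on either strand, to the E2F word TTCCCGC and its variant, spelled TTGGCGC, and to the CCAAT box; no matches overlapped. EZH2 lies at chr7:148884242-148884541 on the minus strand, EED at chr11:86244503-86244802 on the plus strand, and HDAC1 at chr1:32291833-32292132 on the plus strand.
EZH2: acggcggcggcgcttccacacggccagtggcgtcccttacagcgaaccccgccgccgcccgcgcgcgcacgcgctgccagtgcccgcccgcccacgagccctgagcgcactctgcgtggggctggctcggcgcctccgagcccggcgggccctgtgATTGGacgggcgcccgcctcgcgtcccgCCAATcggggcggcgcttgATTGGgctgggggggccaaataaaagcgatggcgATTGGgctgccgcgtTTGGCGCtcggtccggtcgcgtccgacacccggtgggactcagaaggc
EED: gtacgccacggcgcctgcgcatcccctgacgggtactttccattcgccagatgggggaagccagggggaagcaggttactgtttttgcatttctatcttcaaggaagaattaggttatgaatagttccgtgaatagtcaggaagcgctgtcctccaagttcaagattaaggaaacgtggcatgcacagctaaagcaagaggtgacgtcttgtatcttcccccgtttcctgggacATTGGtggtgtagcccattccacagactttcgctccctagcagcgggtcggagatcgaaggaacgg
HDAC1: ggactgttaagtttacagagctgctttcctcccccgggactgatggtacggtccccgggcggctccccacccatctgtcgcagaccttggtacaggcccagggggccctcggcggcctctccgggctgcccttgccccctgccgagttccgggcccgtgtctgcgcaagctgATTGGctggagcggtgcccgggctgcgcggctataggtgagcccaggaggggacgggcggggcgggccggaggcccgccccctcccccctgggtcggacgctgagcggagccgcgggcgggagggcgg
The EZH2 window held 46 CpG dinucleotides, 4 CCAAT matches between positions -94 and -9, counted from the start site, and an E2F match at positions 3 to 9. The EED window held 16 CpG and a CCAAT match at -16 to -12, and the HDAC1 window 28 CpG and a CCAAT match at -78 to -74. Of the 28 members with a RefSeq window, 3 (10.7%) held an E2F word and 11 (39.3%) a CCAAT match. The shares were 9.23% and 34.6% over all 35116 windows of the same length. Over the 22199 windows of protein-coding genes they were 11.5% and 34.7%. The median CpG count was 30 over the members and 14 over all windows, which include those of genes that code for no protein. The matches describe letters only.

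PRC1 genes showed no called difference between the classes. Of 8 measured members 0 rose and 0 fell by limma, 1 was higher at an unadjusted p under 0.05, and the median difference was 0.01. That 1 gene was CBX7, a chromodomain subunit that reads the PRC2 mark, whose PCM values of 7.77, 8.16 and 7.50 in L363, U266 and LP1 all exceeded the B-cell line means of 6.88 in Namalwa, 6.62 in SU-DHL4 and 7.05 in SU-DHL6. Its difference of 0.96 (interval 0.46 to 1.46) had an adjusted p of 0.0777 by limma. PCGF1, a RING-finger partner of the ubiquitin ligase, also had the PCM values above the B-cell ones, at 0.10 (interval -0.08 to 0.28). Its second probe set went the other way, at -0.29 with every PCM line below every B-cell line (adjusted p = 0.345, limma). The ligase subunit RING1 was at -0.01 (-0.38 to 0.36), and the chromodomain subunits CBX2 at -0.02 (-0.35 to 0.32) and CBX6 at 0.03 (-0.32 to 0.38). The polyhomeotic subunit PHC1 was at -0.50 (-1.24 to 0.23), PHC2 at -0.06 (-0.52 to 0.40) and the RING-finger gene PCGF2 at 0.24 (-0.18 to 0.66), all with overlapping classes.

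Among 7 measured Trithorax and COMPASS genes, SMARCA4 fell in PCM lines and none rose, with a median difference of -0.33; at an unadjusted p under 0.05, 2 were lower and 1 higher. SMARCA4, an ATPase of SWI/SNF remodelling complexes related to the trithorax-group protein Brahma of flies, had levels of 9.98 in L363, 10.28 in U266 and 9.89 in LP1, against 11.08 and 10.77 in Namalwa, 11.13 and 11.54 in SU-DHL4 and 10.86 and 11.34 in SU-DHL6. All B-cell arrays exceeded all PCM arrays, though duplicates of a B-cell line lay up to 0.47 apart. It averaged 10.05 ± 0.20 in PCM lines and 11.12 ± 0.20 in B-cell lines (SD, n = 3 each), a difference of -1.07 (SE 0.15, adjusted p = 0.0327, limma). Of its 8 probe sets, 6 had every PCM line below every B-cell line and 4 passed the test, while a dim pair differed by -0.09 and 0.07. With L363 and U266 averaged the difference was -1.11, with an adjusted p of 0.0791 by limma.

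MEN1, menin, a COMPASS subunit that recruits KMT2A, was 8.80 in L363, 8.94 in U266 and 8.93 in LP1, against 9.34 and 9.38 in Namalwa, 9.71 and 9.75 in SU-DHL4 and 9.95 and 9.99 in SU-DHL6. The classes were apart, duplicates agreed within 0.04, and the difference of -0.80 (SE 0.17) had an adjusted p of 0.0765 by limma. KMT2A, the mammalian Trithorax methyltransferase, was at -0.33 (adjusted p = 0.287) and its relative KMT2D at 0.44 (adjusted p = 0.0724), by limma and without overlap in opposite directions. KMT2A was apart at 1 of its 6 probe sets and KMT2D at 1 of its 3. KMT2B was at -0.12 (interval -0.43 to 0.19), and the shared COMPASS subunits ASH2L at -0.14 (-0.51 to 0.23) and RBBP5 at -0.47 (-1.02 to 0.09), with overlapping classes.

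**Figure D2:**
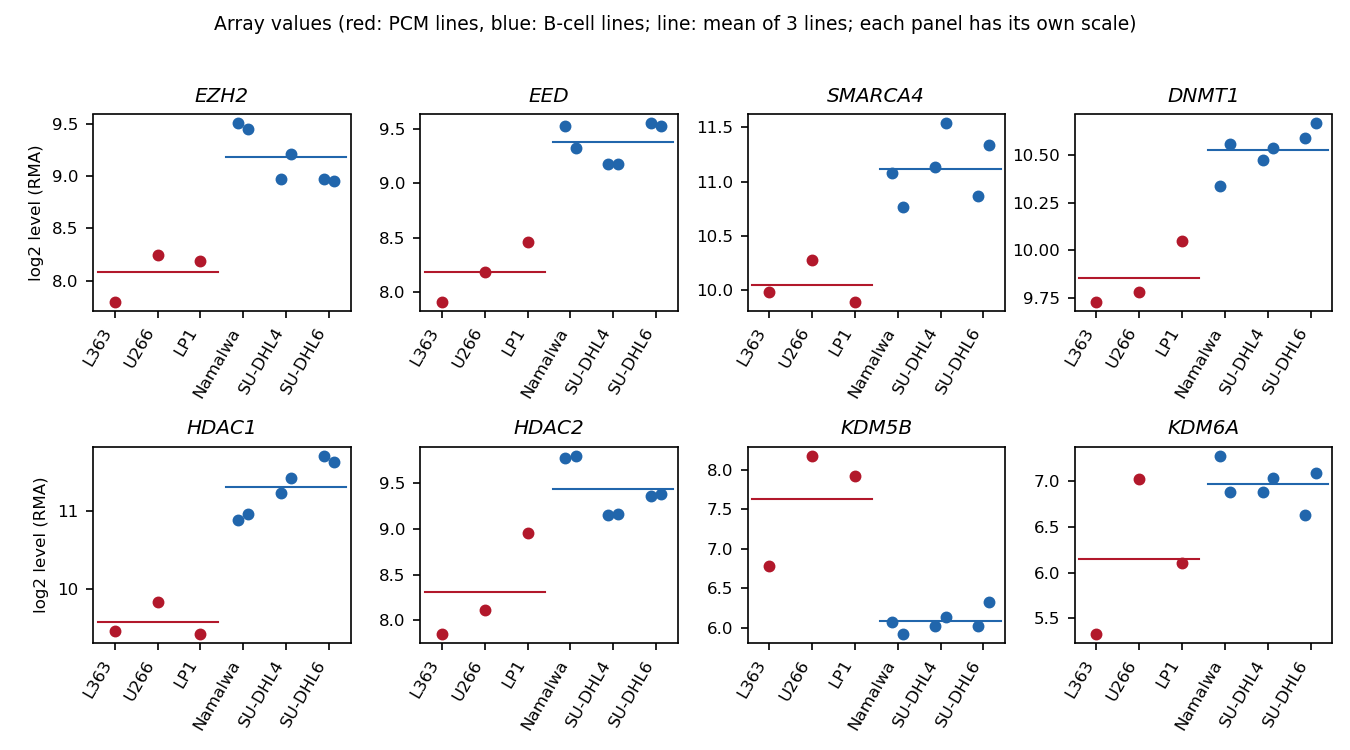
Log2 level (RMA) on every array for 8 genes, PCM arrays in red on the left of each panel and B-cell arrays in blue on the right, with a line at the mean of each class's 3 lines and a separate scale per panel. EZH2, EED, SMARCA4, DNMT1 and HDAC1 are lower on every PCM array, HDAC2 comes near in LP1, KDM5B is higher on every PCM array, and KDM6A in U266 lies among the B-cell arrays.

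Of the 3 demethylase genes, KDM5B and KDM6A scattered widely among PCM lines. None passed between the classes by limma, and 1 was higher at an unadjusted p under 0.05. KDM5B, which removes the activating mark, was 6.78 in L363, 8.18 in U266 and 7.93 in LP1, against 6.07 and 5.92 in Namalwa, 6.03 and 6.13 in SU-DHL4 and 6.02 and 6.33 in SU-DHL6. Every PCM array was above every B-cell array, and L363 stood nearest to them. The means were 7.63 ± 0.75 in PCM lines and 6.08 ± 0.09 in B-cell lines (SD, n = 3 each), a difference of 1.55 (SE 0.37, interval 0.63 to 2.46) with an adjusted p of 0.104 by limma. It passed without L363, at 1.97 (adjusted p = 0.0233), and with L363 and U266 averaged, at 1.62 (adjusted p = 0.0429, limma). L363 minus U266 was -1.40 at this gene, so the 2 lines were not alike here. Both changes take that gap out of the spread. Of its 4 probe sets, 3 had the PCM lines above the B-cell lines.

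KDM6A, an X-linked demethylase of the PRC2 mark that also sits in COMPASS, was 5.33 in L363, 7.02 in U266 and 6.10 in LP1, against 7.28 and 6.88 in Namalwa, 6.88 and 7.04 in SU-DHL4 and 6.63 and 7.09 in SU-DHL6. U266 lay within the B-cell range while L363 and LP1 lay below it. The difference of -0.82 (SE 0.42, interval -1.86 to 0.23) had an adjusted p of 0.340 by limma. Other KDM6A probe sets were at -0.19 (adjusted p = 0.610) and -0.33 (adjusted p = 0.299, limma), with overlapping classes. KDM6B, the inducible enzyme for the same mark, was at 0.16 (-0.18 to 0.50), with overlapping classes. Its other probe sets were at -0.16, with every PCM line below every B-cell line (adjusted p = 0.336), and at -0.20 (adjusted p = 0.474, limma), so the direction differed between probe sets.

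The 3 DNA methyltransferases divided. DNMT1, which copies methylation after replication, was 9.73 in L363, 9.78 in U266 and 10.05 in LP1, against 10.34 and 10.56 in Namalwa, 10.47 and 10.53 in SU-DHL4 and 10.59 and 10.66 in SU-DHL6. The classes were apart, with LP1 the closest PCM line. DNMT1 averaged 9.85 ± 0.17 in PCM lines and 10.53 ± 0.09 in B-cell lines (SD, n = 3 each), a difference of -0.67 (SE 0.11, adjusted p = 0.0472, limma), and -0.62 with an adjusted p of 0.134 when L363 and U266 were averaged. The de novo enzyme DNMT3A was at 0.49 (interval 0.27 to 0.70, adjusted p = 0.0572, limma), with PCM values of 6.57, 6.75 and 6.65 in L363, U266 and LP1 above B-cell line means of 6.25 in Namalwa, 6.07 in SU-DHL4 and 6.19 in SU-DHL6. The other de novo enzyme, DNMT3B, was at 0.55 (interval -0.46 to 1.57, adjusted p = 0.482, limma), and its PCM values of 7.82 in L363, 7.14 in U266 and 8.72 in LP1 overlapped the B-cell line means of 7.57 in Namalwa, 7.06 in SU-DHL4 and 7.39 in SU-DHL6.

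The 3 deacetylases were all lower in mean level in PCM lines, with a median difference of -1.13, and HDAC1 alone passed; at an unadjusted p under 0.05, 2 were lower. HDAC1, a catalytic subunit of the SIN3, NuRD and CoREST corepressors, was 9.46 in L363, 9.84 in U266 and 9.43 in LP1, against 10.88 and 10.96 in Namalwa, 11.23 and 11.43 in SU-DHL4 and 11.71 and 11.63 in SU-DHL6. The gap between the highest PCM array and the lowest B-cell array exceeded the spread within PCM lines. HDAC1 averaged 9.58 ± 0.23 in PCM lines and 11.31 ± 0.37 in B-cell lines (SD, n = 3 each), a difference of -1.73 (SE 0.22, adjusted p = 0.0251, limma). With L363 and U266 averaged the difference was -1.76, with an adjusted p of 0.0768 by limma. HDAC2, its partner in the same complexes, was 7.85 in L363, 8.11 in U266 and 8.95 in LP1, against 9.77 and 9.79 in Namalwa, 9.15 and 9.16 in SU-DHL4 and 9.35 and 9.37 in SU-DHL6. LP1 was the closest PCM line and Namalwa the highest line, and the difference of -1.13 (SE 0.32) had an adjusted p of 0.147 by limma. Without LP1 it was -1.45, with an adjusted p of 0.0420. HDAC3, the deacetylase of the NCOR corepressors, was at -0.27 (interval -0.88 to 0.34, adjusted p = 0.559, limma).

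In total 10 members had every PCM line below every B-cell line and 5 had every PCM line above, against 11.8% and 17.5% of all genes and 11.3% and 16.9% of all probe sets. The number called depended on which lines were used, among the members and over all 22215 probe sets. Over all probe sets limma called 619 with all 6 lines, 897 without LP1, 327 without Namalwa and 131 without L363. It called 192 without U266, 149 without SU-DHL4, 313 without SU-DHL6 and 184 with L363 and U266 averaged. By limma, 4 members passed without LP1 (HDAC1, EED, DNMT1 and HDAC2, all lower), 2 without Namalwa (HDAC1 and MEN1, both lower), 1 without L363 (KDM5B, higher), and 0 without U266, SU-DHL4 or SU-DHL6, where 16, 13 and 16 had an unadjusted p under 0.05. With L363 and U266 averaged 1 passed, KDM5B. Once the _x_at and _s_at types, which can bind transcripts of several genes, were dropped, HDAC1 was the 1 that passed of 18 members still measured. EZH2 and DNMT1 then had no probe set left and were not tested. EED and SMARCA4 were left with dim probe sets, at mean levels of 4.22 and 5.21. Quantile normalization ended the calls of EZH2 (-0.997, adjusted p = 0.0599) and DNMT1 (-0.47, adjusted p = 0.103), as did a trended robust prior (0.0595 and 0.0993), and centring on the 75th percentile that of DNMT1 (-0.58, adjusted p = 0.0609).

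The 6 lines were also compared without grouping them, so that a difference between the classes counts as well. A moderated F-test by limma of any difference among the 6 lines called 16 of the 30 members, against 26.4% of all probe sets and 29.9% of all genes. Those shares are not matched for level, and 26 members lay above the median level of all probe sets. With only probe sets above that median tested, 13 of 26 members and 4820 of 11107 probe sets passed. In that fit the single PCM arrays are assumed to vary like the B-cell duplicates. Of the 16, 11 had classes that did not overlap, and the other 5 were KDM6A, DNMT3B, HDAC3, PHC1 and PCGF2. Among the 3 B-cell lines alone, such a test called 5 of the 30 members and 3067 of 22215 probe sets. With the replicate number in that fit it called 3 members and 2215 probe sets. The range over the 6 line means was at least 1 for 14 members, against 25.6% of all probe sets and 27.8% of all genes. HDAC1 had the widest range, 2.24, followed by KDM5B with 2.18, HDAC2 with 1.93, KDM6A with 1.76 and EZH2 with 1.68.

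**Figure D3:**
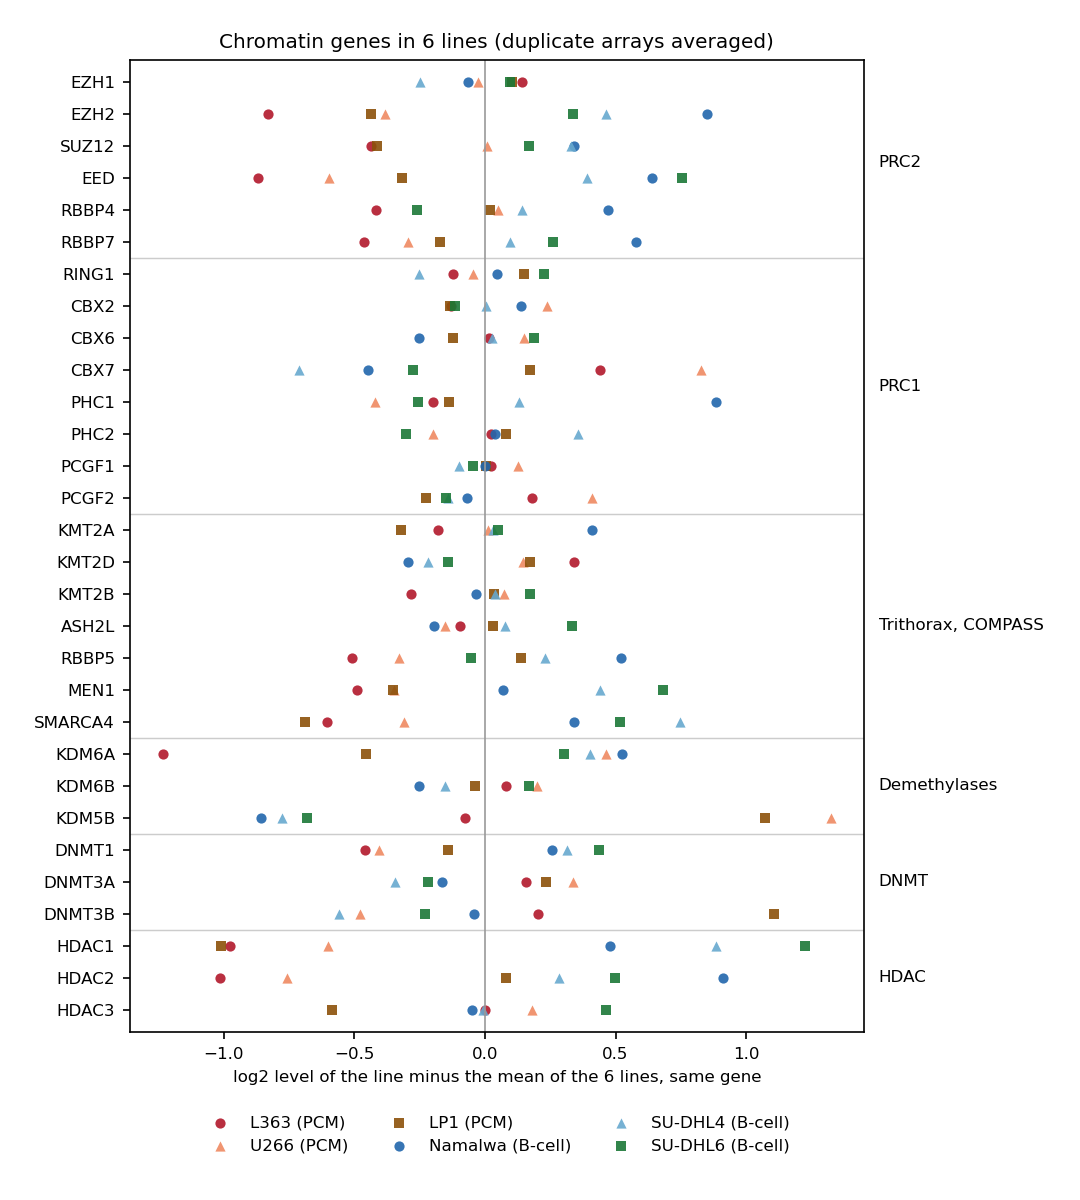
Log2 level of each line minus the mean of the 6 lines for the same gene, with duplicate arrays averaged, PCM lines in reds and brown and B-cell lines in blues and green. L363 is at the far left for 11 of the 30 genes, a count not made over all genes. HDAC1 and KDM5B have the widest ranges, in opposite directions.

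By line, L363 was the lowest of the 6 for 11 members, LP1 and SU-DHL4 for 6 each, Namalwa for 5, and U266 and SU-DHL6 for 1 each. Namalwa and SU-DHL6 were the highest for 9 each, U266 for 7, L363 and SU-DHL4 for 2 each and LP1 for 1. How often each line was lowest or highest over all genes was not counted, so these counts describe the members alone. The PCM lines had no duplicates, so differences between them carry no test. L363 and U266 were at least 2-fold apart at 2 members, KDM6A (-1.70, L363 minus U266) and KDM5B (-1.40), against 1.24% of all probe sets and 1.30% of all genes. LP1 was at least 2-fold from the mean of L363 and U266 at DNMT3B (1.24 higher in LP1), against 5.59% of all probe sets and 6.13% of all genes. Relative to that mean, LP1 differed by 0.97 at HDAC2 and by -0.67 at HDAC3, with HDAC3 levels of 9.49 in L363, 9.67 in U266 and 8.91 in LP1.

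Namalwa was set against SU-DHL4 and SU-DHL6 averaged, in a fit to the 6 B-cell arrays that uses the spread between duplicates. The labels do not say whether duplicates came from separate cultures, so these p-values may measure technical spread alone. Namalwa had more PHC1, HDAC2 and EZH2 and less HDAC1 and MEN1. In this fit 3 of the 30 members rose and 2 fell (limma), against 4.70% and 4.31% of all probe sets and 5.17% and 4.99% of all genes. At an unadjusted p under 0.05, 7 were higher and 4 lower, against 10.7% and 10.3% of all probe sets. With only probe sets above the median level tested, 5 of 26 members and 1702 of 11107 probe sets passed the adjusted threshold. Per the design text the Namalwa arrays had been published before the others were made, so line and array run cannot be told apart.

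PHC1 was 8.74 and 8.46 in Namalwa, against 7.76 and 7.93 in SU-DHL4 and 7.25 and 7.68 in SU-DHL6. Both Namalwa arrays were above all others, PCM arrays included, and the difference was 0.95 (SE 0.16, adjusted p = 0.0221, limma). HDAC2, at the array levels given above, was 0.52 higher in Namalwa (SE 0.07, adjusted p = 0.0121), and EZH2 0.45 higher (SE 0.09, adjusted p = 0.0418). HDAC1 differed the other way, by -0.58 (SE 0.09, adjusted p = 0.0194, limma). Among the B-cell lines Namalwa was thus lowest for HDAC1 and highest for its partner HDAC2, while SU-DHL6 stood above SU-DHL4 for both. MEN1 differed by -0.49 (SE 0.07, adjusted p = 0.0158, limma). Of the members that missed the threshold, ASH2L was at -0.40 (adjusted p = 0.0682), DNMT3B at 0.35 (adjusted p = 0.0729), HDAC3 at -0.28 (adjusted p = 0.0792) and RBBP7 at 0.40 (adjusted p = 0.0930, limma). Calls were lost when a Namalwa or SU-DHL4 array was left out, which leaves 1 array in the line. Only HDAC1 without SU-DHL4 array 1 kept its call, and EZH2 also lost its call without either SU-DHL6 array. Over all alternatives the difference was 0.81 to 1.09 for PHC1, 0.51 to 0.54 for HDAC2 and 0.39 to 0.51 for EZH2. It was -0.63 to -0.53 for HDAC1 and -0.51 to -0.47 for MEN1.

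**Figure D4:**
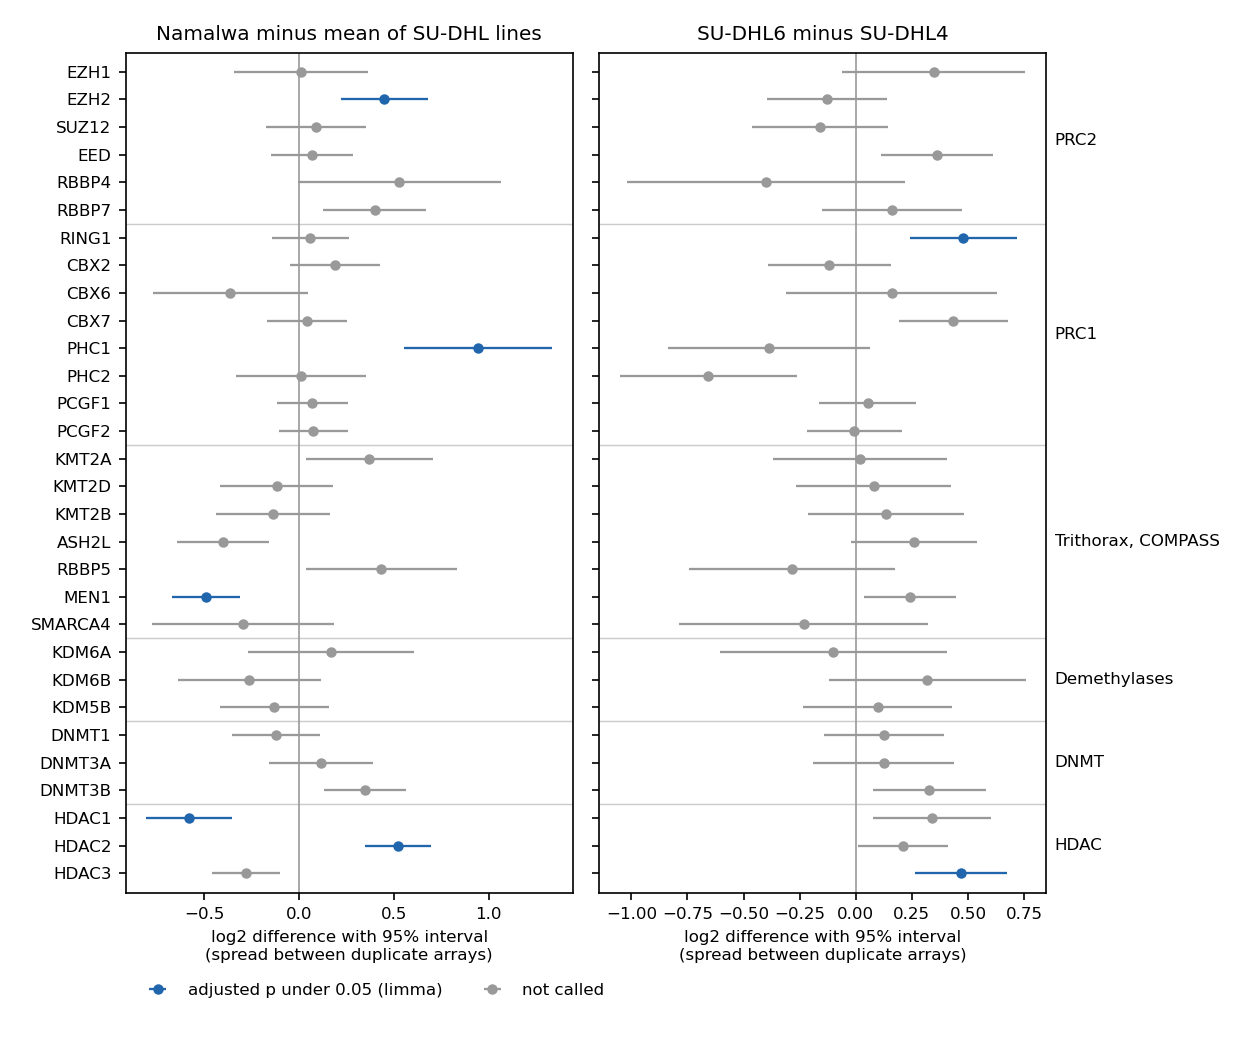
Log2 difference with its 95% interval for each gene between Namalwa and the mean of SU-DHL4 and SU-DHL6 (left) and between SU-DHL6 and SU-DHL4 (right), from the spread between duplicate arrays. Blue marks an adjusted p under 0.05 by limma, which 5 genes reached on the left and 2, RING1 and HDAC3, on the right.

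SU-DHL6 had more RING1 and HDAC3 than SU-DHL4, and the rest did not pass. RING1 was 10.01 and 10.00 in SU-DHL6, against 9.61 and 9.44 in SU-DHL4. HDAC3 was 9.96 and 9.95 in SU-DHL6, against 9.49 and 9.48 in SU-DHL4. For both genes the arrays of the lines did not overlap, with differences of 0.48 (SE 0.10, adjusted p = 0.0401) for RING1 and 0.47 (SE 0.08, adjusted p = 0.0279, limma) for HDAC3. Of the 30 members 2 rose and 0 fell by limma, against 3.75% and 4.77% of all probe sets and 4.66% and 4.95% of all genes. At an unadjusted p under 0.05, 8 were higher and 1 lower, against 11.3% and 11.4% of all probe sets. With only probe sets above the median level tested, 3 of 26 members and 1757 of 11107 probe sets passed the adjusted threshold. PHC2 was at -0.66 (interval -1.05 to -0.26, adjusted p = 0.0664) and CBX7 at 0.43 (0.19 to 0.68, adjusted p = 0.0562, limma). EZH2, EED and SUZ12 were at -0.13 (-0.40 to 0.14), 0.36 (0.11 to 0.61) and -0.16 (-0.46 to 0.15), none of them called. Neither gene stayed called when any 1 of the 6 B-cell arrays was left out, which leaves 1 array in a line. Over all alternatives the difference was 0.39 to 0.62 for RING1 and 0.46 to 0.52 for HDAC3.

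A wider list of 114 genes of the same machinery had 90 measured. In PCM lines 5 of them fell and 1 rose by limma, with 21 below and 9 above without overlap and a median of -0.21. Of all genes 1.95% fell and 1.35% rose, 11.8% were below and 17.5% above without overlap, and the median was 0.05. After averaging L363 and U266, limma called 2 lower and 0 higher, and 14 were lower and 3 higher at an unadjusted p under 0.05. With that averaging 184 of all 22215 probe sets passed, and the unadjusted share over all probe sets was not counted. SWI/SNF subunits held 3 of the 5: BCL7A averaged 6.80 ± 0.37 in PCM lines and 9.66 ± 0.34 in B-cell lines (-2.85, adjusted p = 0.0106), the core subunit SMARCB1 8.86 ± 0.08 in PCM lines and 9.96 ± 0.34 in B-cell lines (-1.10, adjusted p = 0.0444), and SMARCD2 8.36 ± 0.15 in PCM lines and 9.04 ± 0.05 in B-cell lines (-0.68, adjusted p = 0.0339; SD, n = 3 each, limma). The median over 17 measured SWI/SNF genes was -0.39. The other lower genes were PSIP1, a chromatin tether of KMT2A and menin (-1.43, adjusted p = 0.0253), and KDM5A, a relative of KDM5B (-0.97, adjusted p = 0.0398, limma). KDM5A averaged 7.35 ± 0.20 in PCM lines and 8.31 ± 0.20 in B-cell lines (SD, n = 3 each), without overlap. The 1 higher gene was RYBP, a subunit of the variant PRC1 that lacks a chromodomain protein, at 8.50 ± 0.22 in PCM lines and 7.74 ± 0.10 in B-cell lines (0.76, adjusted p = 0.0498, limma). BCL7A passed after that averaging at -2.96 (adjusted p = 0.0419) and PSIP1 at -1.40 (adjusted p = 0.0350, limma). SMARCB1, SMARCD2, KDM5A and RYBP did not pass, with adjusted p values of 0.128, 0.0768, 0.0789 and 0.0974 by limma. None of the measured PRC2 accessory, other DNA methylation, other deacetylase and corepressor, or other histone methyltransferase and acetyltransferase genes, 3, 10, 22 and 18 in number, passed between the classes by limma; at an unadjusted p under 0.05, 0, 2, 2 and 0 were higher and 1, 1, 4 and 3 lower.

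Between B-cell lines, Namalwa had 5 higher and 6 lower genes of the 90 than the SU-DHL lines, against 5.17% and 4.99% of all genes. The largest difference among those called was at SMARCD3, a SWI/SNF subunit known from muscle and heart (8.50 in Namalwa, against 6.56 in SU-DHL4 and 6.70 in SU-DHL6, a difference of 1.87, adjusted p = 0.000571, limma). SU-DHL6 had 3 higher and 6 lower genes of the 90 than SU-DHL4, against 4.66% and 4.95% of all genes. Among these was the PRC1-associated gene SCML2 (6.67 in SU-DHL6, against 8.26 in SU-DHL4, a difference of -1.59, adjusted p = 0.00935, limma), and another was the PRC2 accessory gene PHF1 (9.44 in SU-DHL6, against 8.20 in SU-DHL4, a difference of 1.24, adjusted p = 0.0335, limma).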

How the data were processed

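RNA of 6 human cell lines was measured on 9 Affymetrix Human Genome arrays. Per the submitters' processing notes, the authors normalised the arrays with RMA and deposited log2 values for 22283 probe sets. No RMA version is given in the sources used here, nor whether the arrays were normalised jointly. The authors' deposited table also gives a p-value and an adjusted p-value per probe set and a log2 difference that runs B-cell minus PCM, turned here. Its p-values equalled those of limma on 9 arrays as replicates within 5.0e-08.

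From the deposited values, 68 control probe sets were left out and 22215 tested with R 4.3.3 and limma 3.58.1 (lmFit, eBayes; two-sided). PCM and B-cell lines were compared on line means (4 residual degrees of freedom), B-cell lines on 6 arrays with line as a factor, and all lines by a moderated F-test (3 residual degrees of freedom each). The number of arrays limits precision. The platform table gave 1 symbol to 19065 probe sets, several to 1043 and none to 2107. No filter on low values was used. The mean level lay below the median of all probe sets for 4 members, KDM5B, KDM6A, DNMT3A and RBBP5. Members, gene lists and the rule that every measured member is named, with array values for called members and those of widest range, were chosen with earlier results of these data known. The tests were tested on simulated data. Alternatives covered scaling, moderation, probe sets, thresholds, replicate units and left-out lines or arrays.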

Additional observations from a re-analysis of the deposited data

How the results depend on the processing

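No called member changed sign under any alternative, and none of the 5, 2 and 5 members called in the PCM, SU-DHL6 and Namalwa comparisons stayed called under all of them. For PCM against B-cell lines, 5 members passed in the analysis reported; 3 passed after quantile normalization, with the trended robust prior, with array 1 alone and with array 2 alone, 13 with each of 9 arrays as a replicate or in the authors' deposited table, 12 with line as a random block, 1 without _x_at and _s_at probe sets, 1 with L363 and U266 averaged, and 0 at an adjusted p under 0.01; leaving out each line in turn gave 0 to 4. For SU-DHL6 against SU-DHL4, 2 passed; 4 passed with probe sets averaged per gene, and 0 with the trended robust prior, at an adjusted p under 0.01 and at a 2-fold minimum; leaving out each array gave 0 in every case. For Namalwa against the SU-DHL lines, 5 passed; 3 passed without _x_at and _s_at probe sets, and 0 at an adjusted p under 0.01 and at a 2-fold minimum; leaving out each array gave 0 to 5. For differences among the 6 lines, 16 passed; 6 passed without _x_at and _s_at probe sets and 9 at an adjusted p under 0.01; leaving out each array or PCM line gave 10 to 17. Counts over all 22215 probe sets moved too. For PCM against B-cell lines they were 619 as reported, 537 after quantile normalization and 492 with the trended robust prior. They were 2189 with 9 arrays as replicates, 2188 in the authors' table, 1567 with line as a random block and 75 at an adjusted p under 0.01. The 2-fold minimum leaves 0 by construction where no called member differed by 1. For the other changes the cause was not tested. The replicate numbers did not pair the B-cell samples, since deviations correlated at -0.44, -0.15 and 0.20 between lines. With the replicate block, SU-DHL6 against SU-DHL4 had 0 calls, with 7 at an unadjusted p under 0.05 (limma), a count not made over all probe sets. With that block Namalwa had 4, and the 3 B-cell lines alone 3 against 5 without the block. With the Namalwa numbers crossed, a pairing chosen after seeing the data, 3 and 7 passed in those comparisons. Fits with 1 array left in a line assume that it varies like the others. With 3 lines per class, only large or even differences could pass, RMA values have no background call, and 7, 8 and 7 uncalled members changed sign in the PCM, SU-DHL6 and Namalwa comparisons under some alternative.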

Other observations

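Some genes of the wider chromatin list were high or low in a single line or pair of lines, and were picked after their values were seen; they are given as values with no test. SCML1, a gene with similarity to the fly Polycomb-group gene Sex comb on midleg, was 6.62 in LP1, 4.49 in L363 and 4.48 in U266, against 4.45 in Namalwa, 4.46 in SU-DHL4 and 4.45 in SU-DHL6. LP1 alone stood out, and the other lines lay within a narrow band. RCOR1, the CoREST scaffold that joins HDAC1 and HDAC2 to a histone demethylase, was 5.72 in L363, 5.60 in U266 and 7.50 in LP1, against 7.60 in Namalwa, 8.46 in SU-DHL4 and 7.87 in SU-DHL6. L363 and U266 were low together, and LP1 lay next to Namalwa. MTA1, a subunit of the NuRD complex with the same deacetylases, was 6.71 in L363, 7.76 in U266 and 8.63 in LP1, against 9.43 in Namalwa, 9.61 in SU-DHL4 and 9.27 in SU-DHL6, so PCM lines were below B-cell lines but spread widely.

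The histone methyltransferase gene NSD2, which a translocation known in LP1 joins to the immunoglobulin heavy chain locus, was 9.89 in LP1, 8.62 in L363 and 8.89 in U266, against 9.52 in Namalwa, 9.74 in SU-DHL4 and 9.38 in SU-DHL6. LP1 was the highest of the lines, and the B-cell lines lay between it and the other PCM lines. GADD45A, a DNA damage response gene linked to DNA demethylation, was 6.96 in L363, 7.12 in U266 and 6.96 in LP1, against 10.47 and 9.97 in Namalwa, 7.92 and 8.41 in SU-DHL4 and 6.45 and 10.05 in SU-DHL6. The SU-DHL6 duplicates lay far apart, with 1 array below every PCM array and the other between the Namalwa arrays.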
